A study of Homo sapiens with 9 samples.

Results

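The early growth response (EGR) genes and the NAB genes were followed across 9 expression arrays of the human embryonic kidney line HEK293, an established line, in which the amount of the histone acetyltransferase MOF had been changed. The members were every probe set whose array annotation named exactly 1 gene symbol among EGR1, EGR2, EGR3, EGR4, NAB1 and NAB2. The rule found 13 probe sets of 5 genes among the 54675 probe sets of the array: 3 for EGR1, 1 for EGR3, 3 for EGR4, 4 for NAB1 and 2 for NAB2. EGR2, a regulator of myelination in Schwann cells, was not analysed here. EGR1 was chosen on its values, because it moved in opposite directions in the 2 treatments on these arrays, so its group differences below are a description with no test. The other genes came with it as its family and its corepressors.

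The Knock Down group (n = 3 arrays) came from cells in which siRNA was used against hMOF, whose gene is KAT8, and the labels of these arrays also speak of knocked out expression. The Over Expression group (n = 3) came from cells transfected with a plasmid encoding hMOF. The Wild type group (n = 3) was HEK293 cells with no treatment. The study's design text names cells given EGFP double-stranded RNA as controls, which are not among the 9 arrays, so transfection and the change of MOF cannot be told apart where a treated group is set against Wild type. The labels do not say whether the 3 replicates of a group were separate cultures, so p-values measure the spread between these arrays, which may be technical.

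EGR proteins are zinc finger transcription factors that bind GC-rich sites and are made within minutes of a growth or stress signal. The signal reaches the EGR1 promoter mainly through the ERK kinases, which phosphorylate ELK proteins bound beside serum response factor (SRF) at CArG boxes. NAB1 and NAB2 have no DNA-binding domain of their own. They bind EGR1, EGR2 and EGR3 and repress the genes these factors occupy, NAB2 in part by bringing in the NuRD remodeller CHD4, and NAB2 is itself induced by EGR1, which closes a negative feedback loop.

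The promoter windows of EGR1, NAB2 and NAB1 are shown because they hold the kinds of site named above. Each holds the 250 bases before the annotated start, 5′ to 3′ on the gene's strand, from RefSeq on GRCh38.p14, with CArG boxes and matches to the EGR motif GCGNGGGCG on either strand in capitals.
EGR1, chr5:138465229-138465478, plus strand: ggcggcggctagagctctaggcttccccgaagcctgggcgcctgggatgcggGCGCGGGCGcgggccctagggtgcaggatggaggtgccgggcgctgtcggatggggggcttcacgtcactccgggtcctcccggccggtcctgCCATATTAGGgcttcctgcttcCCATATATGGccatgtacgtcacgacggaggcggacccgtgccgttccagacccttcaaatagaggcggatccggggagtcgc
NAB2, chr12:57088864-57089113, plus strand: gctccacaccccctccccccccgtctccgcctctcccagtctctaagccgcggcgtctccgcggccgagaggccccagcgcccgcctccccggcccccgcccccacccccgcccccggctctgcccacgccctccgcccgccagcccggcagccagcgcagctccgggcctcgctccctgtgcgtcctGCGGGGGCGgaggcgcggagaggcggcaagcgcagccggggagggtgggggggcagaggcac
NAB1, chr2:190648645-190648894, plus strand: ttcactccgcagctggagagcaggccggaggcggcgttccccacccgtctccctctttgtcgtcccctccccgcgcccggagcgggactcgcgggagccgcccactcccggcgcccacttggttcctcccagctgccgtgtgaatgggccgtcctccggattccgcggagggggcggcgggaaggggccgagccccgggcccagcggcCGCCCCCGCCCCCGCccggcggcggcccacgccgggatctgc

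The EGR1 window held 2 CArG boxes, which began 105 and 83 bases before the start, and 1 EGR motif 198 bases before it. It also held 2 matches to TGACG, the core of a cyclic AMP response element, on the minus strand. The NAB2 window held 1 EGR motif, 62 bases before the start, and no CArG box. The NAB1 window, the first of 3 windows listed for this gene, held 2 overlapping EGR motifs on the minus strand, 42 and 36 bases before the start. The EGR4 window held neither a CArG box nor an EGR motif and had 2 TGACG matches. Among the 35116 promoter windows of the table, 1.16% held a CArG box, 8.41% an EGR motif and 21.2% a TGACG match on either strand. These matches are strings of letters, and no binding was measured.

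**Figure D1:**
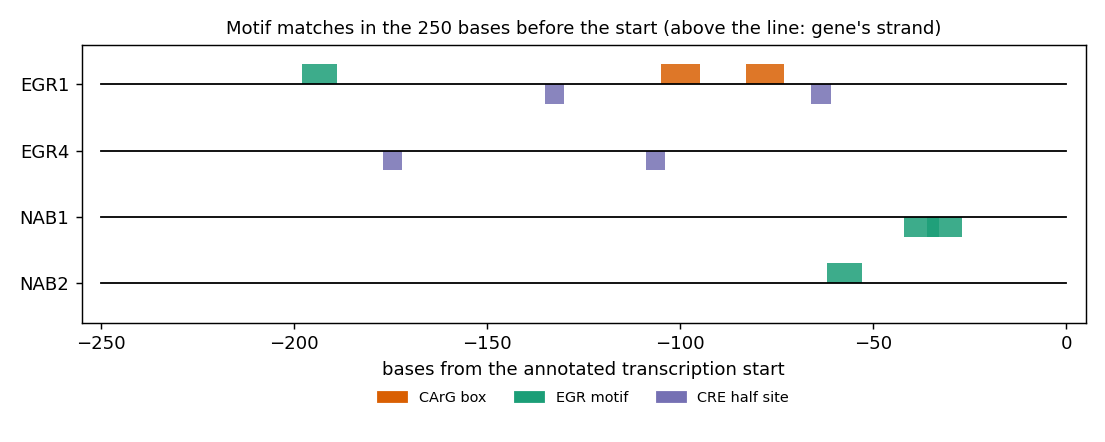
Motif matches in the 250 bases before the annotated start of EGR1, EGR4, NAB1 (first of its 3 windows) and NAB2; the horizontal axis gives bases from the start, and blocks above or below each line are matches on the gene's own or the opposite strand. The 2 CArG boxes lie in the EGR1 window, and EGR motifs lie in the EGR1, NAB1 and NAB2 windows.

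Signals were the authors' MAS5 values, a linear probe set brightness scaled per array. Differences were taken between group means of log2(signal + 1), a scale that understates changes of dim probe sets. Probe sets with a mean log2 signal at or above the median of 7.56, 27307 in all, were fitted with limma, and a probe set was called where the Benjamini-Hochberg adjusted p over all of them was below 0.05. Of the 13 member probe sets, 9 passed this filter, and 6 of those lay outside EGR1. For KAT8 the probe set 221820_s_at averaged 552 ± 140.1 in Knock Down, 4695 ± 88.9 in Over Expression and 3318 ± 448 in Wild type (SD, n = 3 each). A second KAT8 probe set, 214885_at, averaged 148 ± 25.3 in Knock Down, 489 ± 147 in Over Expression and 443 ± 50.6 in Wild type. The ratio of 3′ to 5′ ACTB probe sets, a measure of RNA integrity, was 1.21 to 1.31 in Knock Down, 1.18 to 1.38 in Over Expression and 1.39 to 1.43 in Wild type, so Wild type lay above both. The same ratio for GAPDH showed no such gap, at 1.00 to 1.11 in Knock Down, 0.98 to 1.11 in Over Expression and 0.99 to 1.04 in Wild type. The part of the ACTB gap in the comparisons with Wild type was not tested. The poly-A spike controls averaged 698 to 788 on the replicate 1 arrays of all groups and 1560 to 1888 on the other 6, so replicate 1 stood apart as a possible batch with 1 array of each group. All 5 filament markers of HEK293 cells (NEFL, NEFM, VIM, KRT8, KRT18) passed the filter. The summed signal of these 5 was 95127 to 108829 in Knock Down, 89337 to 105959 in Over Expression and 97966 to 102461 in Wild type. KRT8, an epithelial keratin, averaged 642 ± 67.9 in Knock Down, 1460.4 ± 171 in Over Expression and 955 ± 69.2 in Wild type (SD, n = 3 each), the same order of groups as EGR1. It fell by 0.57 in Knock Down against Wild type (limma adjusted p = 0.0223) and by 1.18 in Knock Down against Over Expression (limma adjusted p = 0.000681), and KRT18, its partner keratin, fell by 0.45 in the second of these (limma adjusted p = 0.00912). The other 3 were not called. Of the blood markers 1 of 4 on the array passed (HBB), of the fibroblast markers 2 of 5 (COL1A1, PDGFRA), and of the listed Schwann cell genes 0 of 6. PDGFRA, a growth factor receptor, averaged 380.1 ± 50.4 in Knock Down and 190.0 ± 48.1 in Over Expression, a rise of 1.02 (limma adjusted p = 0.0209), with 253 ± 19.6 in Wild type. The summed fibroblast markers gave 1955 to 2689 in Knock Down, 2410.0 to 3617 in Over Expression and 2749.8 to 3018 in Wild type. The part of these marker genes in the results on the members was not tested.

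EGR1, the founding member of the family, had less signal in Knock Down and more in Over Expression than in Wild type on all 3 of its probe sets. With 227404_s_at, the Knock Down arrays gave 946, 726 and 1122, the Over Expression arrays gave 17289.5, 13040.2 and 13909, and the Wild type arrays gave 2902, 3106 and 3299. The 3 groups lay apart with wide gaps, and no array of one group fell among those of another. The group means were 931 ± 199 in Knock Down, 14746 ± 2245 in Over Expression and 3102 ± 199 in Wild type (SD, n = 3 each). On the log2 scale Knock Down minus Wild type was -1.76 (SE 0.16), a signal 3.38-fold lower, and Over Expression minus Wild type was 2.24 (SE 0.16), a signal 4.72-fold higher. Knock Down minus Over Expression was -4.00 (SE 0.16), or 15.9-fold lower. In bulk RNA of this kind, fewer cells that make a transcript and less transcript per cell cannot be told apart.

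The other EGR1 probe sets ran the same way. With 201694_s_at, the Knock Down arrays gave 559.5, 720.0 and 1011, the Over Expression arrays 7786.5, 7493.5 and 10396, and the Wild type arrays 1461, 1779.6 and 2014.5. Its differences were -1.23 for Knock Down minus Wild type, 2.28 for Over Expression minus Wild type and -3.51 for Knock Down minus Over Expression (SE 0.21). With 201693_s_at, the Knock Down arrays gave 287.5, 240.1 and 179, the Over Expression arrays 1011, 1027 and 993, and the Wild type arrays 348, 313 and 389. Its differences were smaller, at -0.59, 1.53 and -2.12 in the same order (SE 0.21), and on both probe sets the groups again did not overlap. The probe sets thus shared a direction in each comparison and differed in size, from -0.59 to -1.76 in Knock Down and from 1.53 to 2.28 in Over Expression. Among 12036 genes, each stood for by its brightest tested probe set, 28 had a lower Knock Down minus Wild type difference than EGR1, 2 had a higher Over Expression minus Wild type difference, and 0 had a lower Knock Down minus Over Expression difference. These ranks describe the choice of EGR1 and support nothing beyond it.

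**Figure D2:**
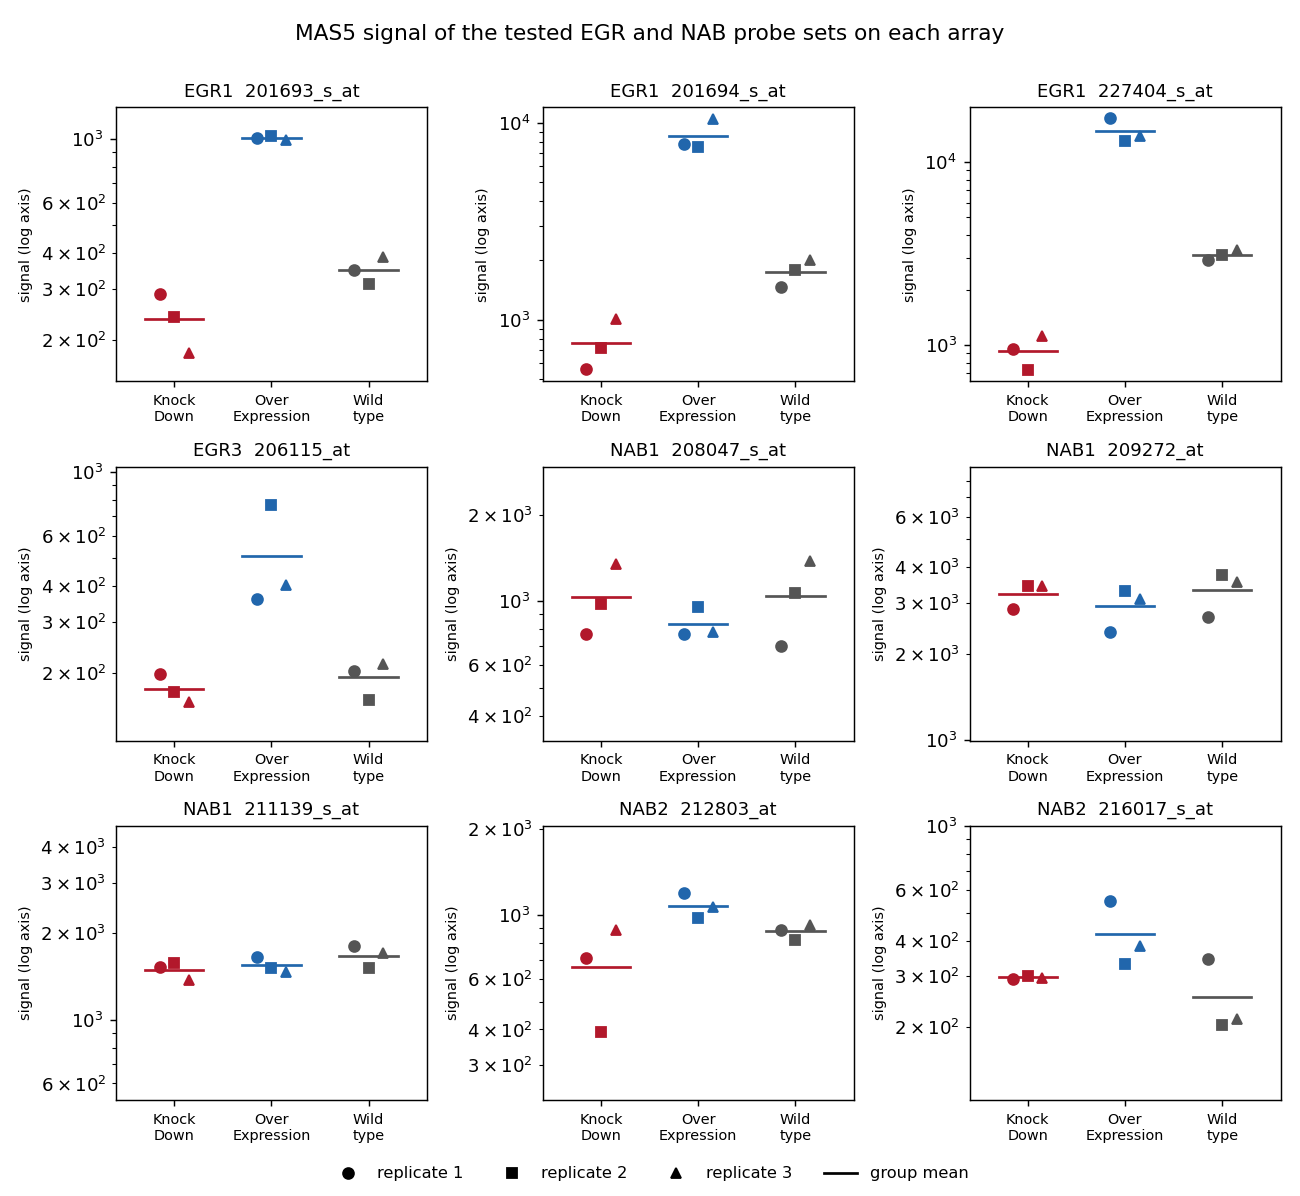
MAS5 signal (log axis) of the 9 tested EGR and NAB probe sets on each array, in Knock Down, Over Expression and Wild type; symbols mark replicates 1 to 3 and lines the group means. The 3 EGR1 panels show groups that do not overlap, EGR3 is high in the Over Expression column at 361 to 766, and the NAB1 groups lie over each other.

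EGR3, a close relative of EGR1 that is itself an immediate early gene, had more signal in Over Expression than in either other group, and its Knock Down and Wild type arrays lay together. With 206115_at, the Knock Down arrays gave 198, 171 and 158, the Over Expression arrays 361, 766 and 405, and the Wild type arrays 202, 160.2 and 215. All 3 Over Expression arrays lay above the other 6, with replicate 2 far above its group, while Knock Down and Wild type overlapped. The means were 176 ± 20.4 in Knock Down, 511 ± 222 in Over Expression and 192.5 ± 28.7 in Wild type (SD, n = 3 each). The Knock Down mean of 7.46 and the Wild type mean of 7.58 on the log2 scale lie near the filter's minimum of 7.56, so the probe set passed mainly through the Over Expression arrays and levels in the other groups are dim.

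Knock Down minus Over Expression was -1.46 for EGR3 (SE 0.31, 95% interval -2.13 to -0.79), a signal 2.75-fold lower. Because the filter let this probe set in through the Over Expression arrays, the test to read is the limma fit of all probe sets with no filter on dim ones, which gave an adjusted p of 0.0266. With the filter the adjusted p was 0.0102, and at most 0.0403 on leaving out any 1 of the 9 arrays. Leaving out arrays was not run without the filter, so these values do not show how stable the unfiltered result is. The SEs and intervals of EGR3 given here also come from the filtered fit. Over Expression minus Wild type was 1.33 (SE 0.31, interval 0.66 to 2.003), yet its limma adjusted p of 0.105 missed the threshold (unadjusted p 0.0011), and it was 0.212 with no filter. With the filter, that adjusted p was 0.0358 with a term for replicate 1 and 0.0427 with replicate number as a block, but 0.0905 from replicates 2 and 3 alone. The difference was 1.00 without Over Expression replicate 2. Within replicate 1 alone it was 0.83, against 2.25 and 0.91 in replicates 2 and 3. Knock Down minus Wild type was -0.13 (interval -0.80 to 0.54, limma adjusted p = 0.816), and changes within this interval are not excluded. An exact permutation test of 3 against 3 arrays, two-sided, cannot go below 0.1, and both non-overlapping EGR3 comparisons gave that value.

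EGR4, the family member that lacks the region through which NAB proteins bind, had 0 of 3 probe sets past the filter. With 207767_s_at, the Knock Down arrays gave 224, 151.5 and 223, the Over Expression arrays 205.5, 169 and 108, and the Wild type arrays 121, 121 and 198. The groups overlapped. The other EGR4 probe sets, 207768_at and 231575_at, ran from 4.0 to 126.7 over the 9 arrays with overlapping groups, and no difference of EGR4 was tested.

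NAB2, the corepressor that EGR1 induces, was ordered like EGR1 on one of its probe sets, with smaller differences. With 212803_at, the Knock Down arrays gave 707, 391 and 888.5, the Over Expression arrays 1191, 978 and 1071, and the Wild type arrays 888, 822 and 923. Every Over Expression array lay above every Wild type and Knock Down array, and Knock Down overlapped Wild type through its replicate 3. The means were 662 ± 252 in Knock Down, 1080.1 ± 107 in Over Expression and 878 ± 51.5 in Wild type (SD, n = 3 each).

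Knock Down minus Over Expression for this NAB2 probe set was -0.78 (SE 0.25, interval -1.33 to -0.23), 1.72-fold lower, with a limma adjusted p of 0.0602 that missed the threshold. It passed with replicate number as a block (adjusted p = 0.0114) and with a term for replicate 1 (adjusted p = 0.0255). The difference rested in part on Knock Down replicate 2: without it the value was -0.44 with an adjusted p of 0.145, and without Knock Down replicate 3 it was -1.03 with an adjusted p of 0.0276. Knock Down minus Wild type was -0.48 (SE 0.25, interval -1.03 to 0.07, limma adjusted p = 0.218) and -0.15 without Knock Down replicate 2. Over Expression minus Wild type was 0.30 (SE 0.25, interval -0.25 to 0.85, limma adjusted p = 0.685), although the 2 groups did not overlap.

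The second NAB2 probe set, 216017_s_at, differed from the first in Knock Down. Its Knock Down arrays gave 294, 302 and 297, its Over Expression arrays 549, 332 and 383, and its Wild type arrays 346, 204 and 213. Knock Down lay below Over Expression without overlap, and the replicate 1 arrays were the highest in both Over Expression and Wild type. Knock Down minus Wild type was 0.27 (limma adjusted p = 0.547), opposite in sign to the first probe set. Over Expression minus Wild type was 0.73 (SE 0.27, interval 0.14 to 1.33, limma adjusted p = 0.304, unadjusted p 0.020), and Knock Down minus Over Expression was -0.47 (limma adjusted p = 0.284).

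NAB1, the broadly expressed corepressor, showed no called difference on any of its 3 tested probe sets, and all groups overlapped. With 209272_at, the Knock Down arrays gave 2851, 3426 and 3430.2, the Over Expression arrays 2376, 3313 and 3109, and the Wild type arrays 2685, 3753 and 3555. The replicate 1 array was the lowest of each group. Knock Down minus Wild type was -0.03 (interval -0.38 to 0.32, limma adjusted p = 0.917), Over Expression minus Wild type -0.18 (interval -0.54 to 0.17, adjusted p = 0.698) and Knock Down minus Over Expression 0.15 (interval -0.20 to 0.50, adjusted p = 0.577). Changes within these intervals are not excluded with 3 arrays a group.

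On 208047_s_at the NAB1 arrays of replicate 1 were again the lowest of each group, at 772 in Knock Down, 769 in Over Expression and 700.2 in Wild type. The other arrays gave 980.2 and 1348 in Knock Down, 953 and 785 in Over Expression, and 1065 and 1376 in Wild type. On 211139_s_at this pattern was absent: Knock Down ran from 1380.3 to 1576, Over Expression from 1465 to 1656 and Wild type from 1512 to 1803. Over these 2 NAB1 probe sets the differences lay between -0.28 and 0.28. The fourth, 239875_at, fell below the filter.

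Outside EGR1, 0 of 6 member probe sets were called in Knock Down against Wild type, where 15.7% of all tested probe sets were. In Over Expression against Wild type 0 of 6 were called, against 0.476% of all, with EGR3 and the second NAB2 probe set at an unadjusted p below 0.05. In Knock Down against Over Expression 1 of 6 was called, EGR3, against 14.5% of all. EGR3 was among the 6 through its Over Expression signal, so this count is no support for a change of the members. With no filter on dim probe sets, 1 of 10 was called there, again EGR3, against 5.47% of all. After filtering, the count was 2 with a term for replicate 1, with replicate number as a block or without Knock Down replicate 3. EGR3 was then joined by NAB2, and these fits called 27.2%, 26.9% and 7.89% of all probe sets in that order. All 3 comparisons reuse groups, so they are not independent of each other.

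**Figure D3:**
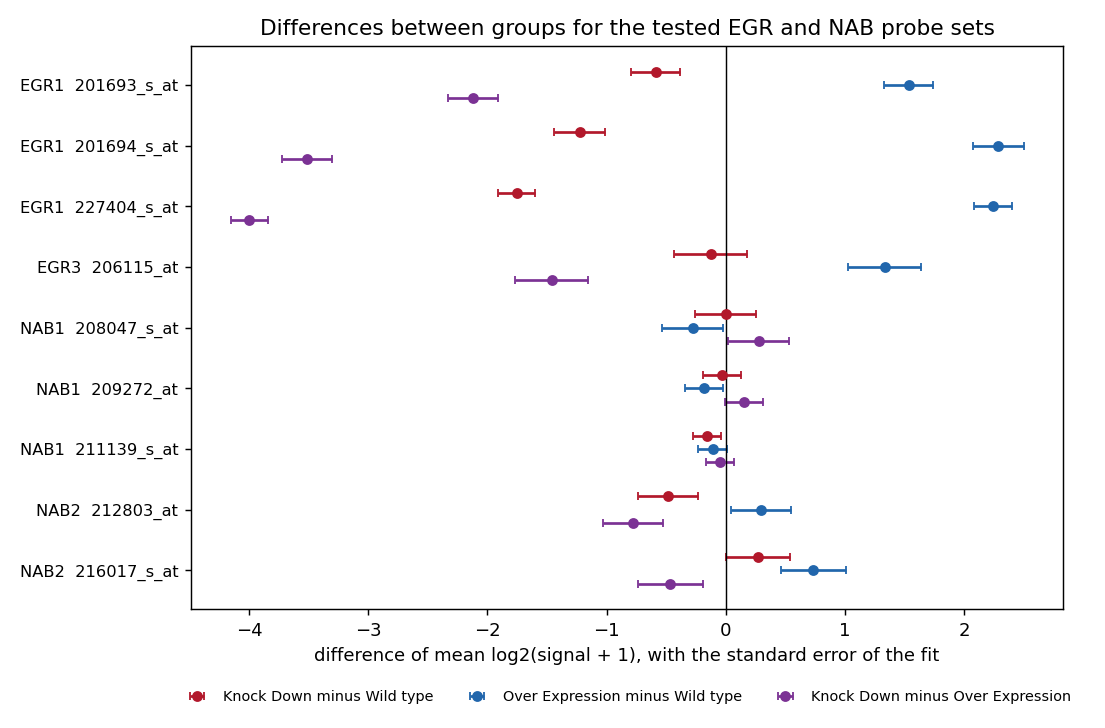
Differences of mean log2(signal + 1) for the 9 tested member probe sets, with the standard error of the fit as bars; red is Knock Down minus Wild type, blue Over Expression minus Wild type and purple Knock Down minus Over Expression. The EGR1 rows reach -4.00 and 2.28, EGR3 departs from 0 in the 2 comparisons that hold Over Expression, and NAB1 stays between -0.28 and 0.28.

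The pattern of other genes was set beside EGR1 by Pearson's r of log2 signal over the 9 arrays with 227404_s_at, among 12035 genes. Because the arrays fall into 3 groups, r follows mainly the group means and is given as a description. The 6 highest were RABEP2 and BORCS7 (both 0.98), TRIM4, C11orf96, PLIN3 and ZCCHC12 (each 0.97). ZCCHC12 averaged 1686 ± 349 in Knock Down, 6138 ± 169.8 in Over Expression and 2467 ± 146 in Wild type. PLIN3, a lipid droplet coat protein, averaged 4688 ± 341 in Knock Down, 7152 ± 650 in Over Expression and 5442 ± 157 in Wild type, so a high r also came with far smaller differences than those of EGR1.

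The 6 lowest were LONRF1 and FLRT3 (both -0.98), SHISA2 and IVNS1ABP (both -0.97), PRDX2 and PPM1H (both -0.96). FLRT3, a membrane protein of cell adhesion, averaged 5123 ± 38.6 in Knock Down, 1213 ± 94.3 in Over Expression and 2239 ± 225 in Wild type. SHISA2 averaged 34671 ± 4426 in Knock Down, 9653 ± 657 in Over Expression and 17999.8 ± 2010 in Wild type. Both ran opposite to EGR1 in all 3 groups. Among the members themselves, EGR3 had an r of 0.82 and stood 610th of the 12035, NAB2 0.78 and 923rd, and NAB1 -0.35 and 9066th.

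Genes of the route to EGR1 (ERK kinases, their RAS and RAF activators, ELK factors and SRF) had 15 of 20 members tested, and the other 5 were not analysed here. Of the 15, 1 was higher and 1 lower in Knock Down against Wild type, against 6.70% of all genes higher and 12.7% lower. ELK4, an SRF partner, rose to 2954 ± 218 in Knock Down, against 2024 ± 68.8 in Wild type (SD, n = 3 each), a difference of 0.54 (SE 0.11, limma adjusted p = 0.00937). The other tested ELK4 probe sets had the same sign, at 0.35 to 0.65, but none was called (limma adjusted p from 0.0643 to 0.520). ELK3, a relative that can repress SRF targets, averaged 2154 ± 379 in Knock Down and 3546 ± 867 in Wild type. Its difference of -0.70 (SE 0.21, limma adjusted p = 0.0449) passed, but leaving out 1 array ended the call in 6 of 9 cases, and a second ELK3 probe set, 206127_at, gave -0.05.

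In Over Expression against Wild type 0 of these 15 genes were called in either direction, against 0.457% of all genes higher and 0.174% lower, and 1 had an unadjusted p below 0.05. SRF averaged 1664 ± 338 in Over Expression and 1325 ± 432 in Wild type, a difference of 0.36 (limma adjusted p = 0.575). In Knock Down against Over Expression 1 was higher, ELK4 at 0.53 (limma adjusted p = 0.0108, and 0.0503 without Knock Down replicate 2), and 0 were lower, against 6.22% of all genes higher and 12.1% lower. The median difference of the 15 was 0.06 in Knock Down against Wild type, 0.08 in Over Expression against Wild type and -0.02 in Knock Down against Over Expression, beside -0.04, 0.00 and -0.05 over all genes. With replicate number as a block, 2 of the 15 were higher and 3 lower in Knock Down against Wild type, and 3 were lower in Knock Down against Over Expression. The block fits called 28% and 26.9% of all probe sets in either direction in these 2 comparisons.

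Of 36 genes described as EGR1 targets in various cells, 20 were tested. In the table of promoter windows 23 of the 36 were found, and 10 of these (43.5%) had an EGR motif, beside 10.1% of 27305 genes. A gene may be described as a target because such a site was found in it, so this share tests nothing. The list was also chosen with earlier results of these data known, so the counts below are a description. Of the 20, 6 rose and 1 fell in Knock Down against Wild type, where 6.70% of all genes were called higher and 12.7% lower. In Over Expression against Wild type 4 rose and 0 fell, where 0.457% of all genes were called higher and 0.174% lower. The 2 comparisons share the Wild type arrays, and the values of each are given side by side.

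GADD45B, a stress response gene, averaged 1035 ± 52.0 in Knock Down, 1056 ± 128 in Over Expression and 449 ± 25.5 in Wild type (SD, n = 3 each). It rose by 1.20 in Knock Down (SE 0.14, limma adjusted p = 0.000578) and by 1.23 in Over Expression (SE 0.14, limma adjusted p = 0.00558). The other tested GADD45B probe sets, 209304_x_at and 209305_s_at, were both called in Knock Down. In Over Expression they rose by 1.42 and 1.04 but were not called (limma adjusted p = 0.0515 and 0.113). GADD45A, its relative induced by DNA damage, averaged 9472 ± 967 in Knock Down, 7806 ± 651 in Over Expression and 5131 ± 421 in Wild type. It rose by 0.88 in Knock Down (limma adjusted p = 0.000546) and by 0.61 in Over Expression (limma adjusted p = 0.0321). Both genes were thus higher in either treated group than in Wild type. Wild type also stood apart in its ACTB ratio, though not in its GAPDH ratio, and the part of RNA integrity was not tested.

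ATF3, a stress-induced transcription factor, averaged 4626 ± 61.2 in Knock Down, 7802 ± 895 in Over Expression and 3298 ± 248 in Wild type. It rose by 0.49 in Knock Down (SE 0.10, limma adjusted p = 0.00978) and by 1.24 in Over Expression (SE 0.10, limma adjusted p = 0.000420), and Knock Down minus Over Expression was -0.75 (limma adjusted p = 0.00125). Neither other tested ATF3 probe set was called in Knock Down against Wild type: 1554980_a_at gave 0.30 (limma adjusted p = 0.158) and 1554420_at 0.29 (0.659 on the same test). In the comparisons with Over Expression, 1554980_a_at was also called and 1554420_at was not. VEGFA, the vascular growth factor, averaged 4992.5 ± 450.1 in Knock Down, 5809.7 ± 630.1 in Over Expression and 3638 ± 569 in Wild type. Its rise was 0.46 in Knock Down (limma adjusted p = 0.0325) and 0.68 in Over Expression (limma adjusted p = 0.0491). In Over Expression none of the 3 other tested VEGFA probe sets was called, and the call was also lost after quantile normalization (adjusted p = 0.0546) and with no filter (adjusted p = 0.0566). The Over Expression count of 4 fell to 2 in the fits without Over Expression replicate 1, 2 or 3. Leaving out Wild type replicate 2 or 3 or Knock Down replicate 2 also gave 2. So did the fits with no variance trend and with only the 2 groups compared. In all these fits GADD45A and VEGFA were not called, and 0.0916% to 0.319% of all probe sets were.

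CCND1, which encodes cyclin D1, averaged 1577 ± 279.8 in Knock Down, 814 ± 71.9 in Over Expression and 892 ± 85.1 in Wild type. It rose by 0.81 in Knock Down against Wild type (SE 0.16, limma adjusted p = 0.00742), and Over Expression minus Wild type was -0.13 (SE 0.16), within 1 standard error of 0. The remaining calls in Knock Down against Wild type were FLT1, a VEGF receptor, at 0.52 (limma adjusted p = 0.0420) and HPSE, a heparanase, at -0.66 (limma adjusted p = 0.0159, not called without Wild type replicate 2 or Knock Down replicate 3). HPSE, FLT1 and, in Knock Down, VEGFA were singled out here after their values were seen.

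Between the treated groups, 4 of the 20 targets were higher in Knock Down than in Over Expression and 2 lower, beside 6.22% of all genes higher and 12.1% lower, and the lower share was near that background. The higher ones were CCND1 at 0.94 (limma adjusted p = 0.00373), JUN at 0.34 (0.00858 on the same test, with its 3 other tested probe sets not called), FLT1 at 0.62 (0.0209, likewise with 3 others not called) and BCL2L11 at 0.47 (0.0292). The lower ones were ATF3 and HPSE, the second at -0.56 (limma adjusted p = 0.0325), and BCL2L11 and HPSE were named after their values were seen. Counts moved to 2 higher without Knock Down replicate 1 or 2, and to 1 lower without any 1 Knock Down array or without Over Expression replicate 2 or 3. The lower count was 4 with replicate number as a block, a fit that called 26.9% of all probe sets in either direction. The median over the 20 targets was 0.30 in Knock Down against Wild type, 0.17 in Over Expression against Wild type and -0.07 in Knock Down against Over Expression, beside -0.04, 0.00 and -0.05 over all genes.

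**Figure D4:**
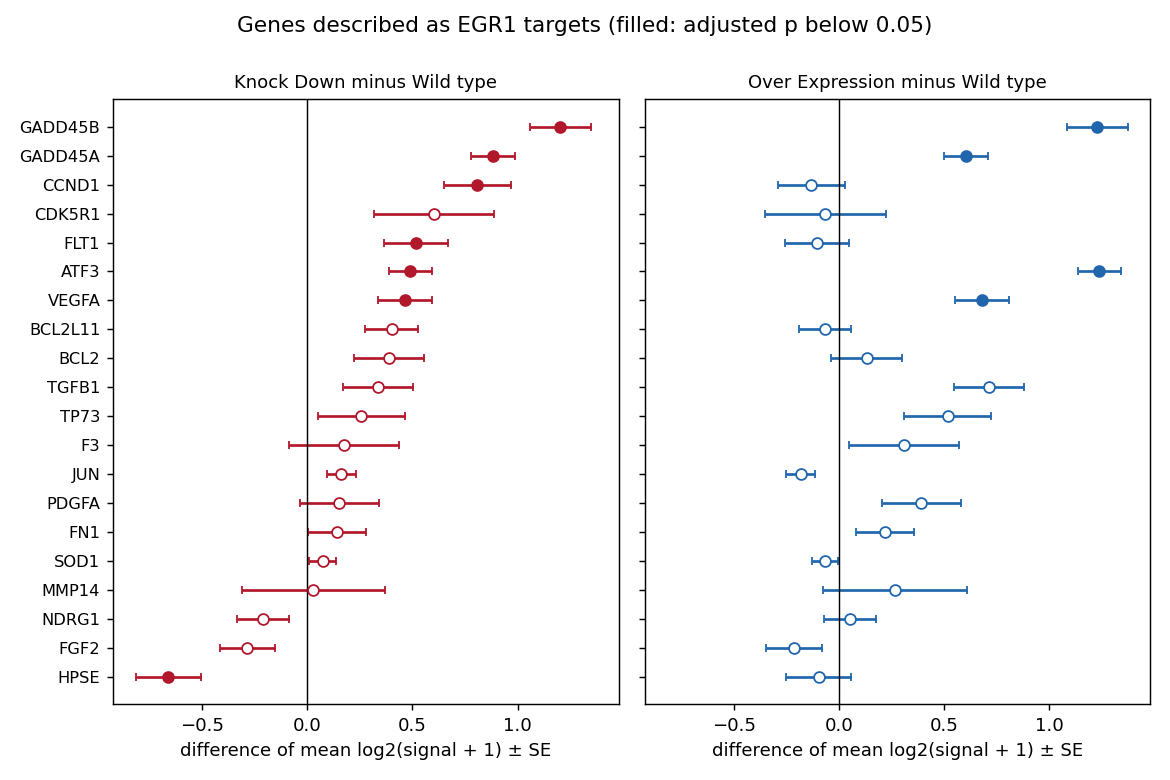
Differences of mean log2(signal + 1) with standard errors for the 20 tested EGR1 target genes, in Knock Down minus Wild type (left) and Over Expression minus Wild type (right); filled points have an adjusted p below 0.05. GADD45B, GADD45A, ATF3 and VEGFA are filled and above 0 on both sides, CCND1 and FLT1 only on the left, and HPSE is filled below 0 on the left.

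Subunits of NuRD, the complex that NAB2 is known to contact, were all tested (14 of 14). None was called against Wild type by limma in either treated group, with 5 at an unadjusted p below 0.05 in Knock Down and 0 in Over Expression. Of all genes, 6.70% were called higher and 12.7% lower in Knock Down, and 0.457% and 0.174% in Over Expression. At the low shares in Over Expression, 0 of 14 is no result about NuRD. CHD4 averaged 6188 ± 793 in Knock Down, 7084 ± 484 in Over Expression and 6669 ± 795 in Wild type. In Knock Down against Over Expression 0 were higher and 2 lower, near the 12.1% of all genes called lower. They were CDK2AP1 at -0.25 (limma adjusted p = 0.0287) and RBBP7 at -0.26 (limma adjusted p = 0.0325), and both calls were lost without Over Expression replicate 1 or 2 or without Knock Down replicate 2 or 3. With replicate number as a block, 3 were higher and 3 lower in Knock Down against Wild type, and 2 were higher and 4 lower in Knock Down against Over Expression. Those fits called 28% and 26.9% of all probe sets in either direction, so many genes outside NuRD were called too. The 5 other factors of GC-rich sites that were listed (SP1, SP2, SP3, SP4 and WT1) had differences between -0.18 and 0.26 and 0 calls, with 0 at an unadjusted p below 0.05. Beside the shares of all genes given above, 0 calls among 5 genes is no result about these factors.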

How the data were processed

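Total RNA of 9 samples was measured on 1-colour expression arrays, and per the submitters' processing notes the deposited intensity values were computed with MAS5 (version not given in the sources used here). On every array the mean after trimming 2% at each end was 1500.2, so the deposited signals were scaled by the authors to one target. Probe sets were named through the platform annotation, in which 41097 had 1 gene symbol, 1801 several and 11777 none.

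From these values log2(signal + 1) was taken, 62 control probe sets and those below the median (7.56) were left out, and 27307 probe sets were fitted in limma 3.58.1 (R 4.3.3) with a variance trend, all 3 groups in 1 fit of 9 arrays, two-sided, with Benjamini-Hochberg adjustment over all of them. Tables were made in Python 3.11.15 and scipy 1.17.1. The number of arrays, the possible replicate 1 batch and dim signals limit the precision. Members, gene lists and tests were chosen with earlier results of these data known. The genes named were all members, KAT8, up to 4 genes of smallest p per list and comparison past the threshold, and the 6 highest and 6 lowest correlations with EGR1. SRF, CHD4, HPSE, BCL2L11, and FLT1 and VEGFA in Knock Down against Wild type and the marker genes KRT8, KRT18 and PDGFRA were named outside this rule, after their values were seen.

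Deviations from the group means of same-numbered arrays correlated at 0.35 to 0.45 for replicate 1, 0.14 to 0.24 for replicate 2 and 0.08 to 0.14 for replicate 3. The replicate 3 pair of Over Expression and Wild type was the one at 0.08. Among replicates 2 and 3, arrays of different number could correlate as much, such as Wild type replicate 3 and Over Expression replicate 2 at 0.28. This did not hold for replicate 1, whose arrays correlated at -0.38 to -0.13 with arrays of other numbers in other groups. The main fit paired no arrays and had no term for replicate 1, so that structure stayed in its spread. Pairing by number entered only through the replicate block, in every comparison alike. Alternatives were quantile normalization, a pseudocount of 64, other filters, a term for replicate 1, the replicate block, no variance trend, only the 2 groups compared and leaving out each array. Replicates 2 and 3 alone were added after seeing the data, as were the alternatives for the lists.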

Additional observations from a re-analysis of the deposited data

How the results depend on the processing

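The EGR1 differences kept their direction under each of the 18 alternatives that gave a value, which were 17 for 201693_s_at because the filter at the 75th percentile leaves it out. For 227404_s_at they ran from -1.90 to -1.59 in Knock Down against Wild type, from 2.07 to 2.32 in Over Expression against Wild type and from -4.14 to -3.83 in Knock Down against Over Expression. With the replicate number as a block, the probe sets called were 7637 for Knock Down against Wild type (4289 without it), 1022 for Over Expression against Wild type (130) and 7334 for Knock Down against Over Expression (3963). With a term for replicate 1 they were 7706, 1109 and 7425 in that order. Outside EGR1, the block and the term each gave 1 member call in Over Expression against Wild type. Each gave 2 in Knock Down against Over Expression and none in Knock Down against Wild type. Of all probe sets, the block called 3.74%, 26.9% and 28% in the same order, and the term 4.06%, 27.2% and 28.2%. The 1 call was EGR3, which passed the filter mainly through its Over Expression arrays. Over Expression against Wild type had 70 calls with no variance trend, 27 with only the 2 groups compared and 220 from replicates 2 and 3. Leaving out 1 array gave 2213 to 4624 calls for Knock Down against Wild type, 25 to 97 for Over Expression against Wild type and 2040 to 4168 for Knock Down against Over Expression. Fewer arrays enter these fits. Member calls outside EGR1 in Knock Down against Over Expression ran from 1 to 2 there, beside 7.47% to 15.3% of all probe sets. They were 0 with the filter at the 75th percentile, which leaves out the EGR3 probe set and called 21% of all. The sign of small NAB1 differences turned. In Knock Down against Wild type, 208047_s_at was 0.0015 after quantile normalization and -0.27 to 0.22 on leaving out 1 array, and 209272_at was -0.18 to 0.061. For 211139_s_at, Knock Down minus Over Expression was -0.088 to 0.0079. The cause of these changes was not tested. EGR3 and EGR4 lie near or under the filter's minimum, which limits what their signals can show.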
